A study of Homo sapiens with 12 samples.

Results

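Ribosome footprints of 9647 genes, of 19951 gene entries in the table, were compared between leukaemia cells carrying the hairpin shBP2-2 against IGF2BP2 and cells carrying the control hairpin shNS. The genes were those with a mean of at least 10 over the 2 shBP2-2 and 2 shNS footprint libraries, after each library was rescaled so that its middle gene matched that of the others. PLPP6 lay just inside that minimum, with a mean of 10.0, and BTBD6 just outside it, with 9.996. All changes below are therefore relative: a gene at a log2 change of 0 moved with the middle of all genes, whatever the total amount of translation did.

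IGF2BP2 is an RNA-binding protein that recognises N6-methyladenosine (m6A), a methyl mark on mRNA, and is known for keeping its target transcripts stable and translated. Ribosome profiling sequences the short RNA fragments that ribosomes shield from nuclease, so a gene's footprint value reflects how much of its mRNA there is and how many ribosomes each mRNA carries. Acute myeloid leukaemia cells draw heavily on glutamine and on the amino acid supply pathways that the transcription factor ATF4 controls, and the series concerns the role of IGF2BP2 in glutamine use.

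The cells were MonoMac6 (MM6), an established human monocytic line of acute myeloid leukaemia, given hairpin lentivirus for 48 h and then selected in puromycin for 2 days. The compared groups were the shBP2-2 cells and the shNS cells, each with 2 footprint and 2 mRNA libraries, and cells with a second IGF2BP2 hairpin, shBP2-1, contributed 2 libraries of each kind to the estimate of the spread. Every group, shNS included, carried a hairpin vector, was under puromycin and was held in cycloheximide for 15 min before footprints were taken. The labels do not say whether replicates were separate cultures, so p-values here measure only the spread between these libraries, which may be technical.

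Footprint values summed to 1686279 and 2583384 in the shBP2-2 libraries, against 4884067 and 4423843 in the shNS libraries, so the shNS mean was 2.18-fold that of shBP2-2. The mRNA libraries needed little rescaling, with factors between 0.987 and 1.04. In the values as deposited, the median gene was at a log2 change of -1.18 with shBP2-2, and that common shift is removed here. Sequencing depth, library yield, fewer cells and less RNA or fewer ribosomes per cell cannot be told apart in such bulk totals. The shBP2-1 footprint libraries were shallower still, at 504631 and 456338. Of 15 monocytic leukaemia markers 14 were tested and CD4 was at 0 in 3 of the 4 shBP2-2 and shNS libraries. Their summed rescaled footprints were 42826 and 42625 with shBP2-2, against 50831 and 52802 with shNS, and 4 of the 14 were called higher and 3 lower (median log2 change 0.22). LYZ and S100A9, both called lower, made up most of these sums. The count of higher markers was 0 without precision weights, 2 in the 4 shBP2-2 and shNS libraries alone, 2 in the 4 libraries alone without weights, 1 or 0 with shBP2-2 replicate 1 or 2 left out and 2 with either shBP2-1 replicate left out, and that of lower ones 5 with shNS replicate 2 left out. Of 7 T and NK cell markers 6 were at 0 in all 6 footprint libraries, CD3D, CD3E and CD3G among them, and so were HBB and PF4 of erythroid cells and megakaryocytes and MS4A1 and PAX5 of B cells. The 5 B cell markers summed to 0 to 14.3 and the 8 erythroid and megakaryocyte markers to 0 to 3.48.

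With shBP2-2, footprints of 659 genes rose and those of 503 fell relative to the middle of all genes, which is 6.83% and 5.21% of the 9647 tested. The test was limma with voom precision weights over the 6 footprint libraries, with a Benjamini-Hochberg adjusted p under 0.05 as the call. Most called changes were modest: the median called increase was 1.45-fold and the median called decrease left 68.0% of the shNS level, while 135 genes rose and 83 fell by more than 1 on the log2 scale. The shBP2-2 values lay above both shNS values in 27% of all tested genes and below both in 26.5%, called or not. They did so in all 659 genes that rose and in 502 of the 503 that fell. Calls followed depth, from 3.24% higher and 1.12% lower in the 2411 genes with the lowest means to 14.5% and 11.2% in the 2412 with the highest. The number of calls was 434 or 486 with shBP2-2 replicate 1 or 2 left out and 242 without precision weights.

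The targeted transcript fell most of the 12 decreases named for their size. IGF2BP2 (chr3:185643130-185825042; coordinates are from RefSeq, GRCh38.p14) had rescaled footprint values of 37.3 and 40.01 in shBP2-2 libraries, against 360.3 and 366 in shNS libraries. The groups lay far apart, and 10.6% of the shNS level remained (log2 change -3.20 ± 0.20, adjusted p = 1.24e-06). Its mRNA was at 707 and 776 in shBP2-2 libraries, against 2438 and 2321 in shNS libraries (log2 change -1.68, adjusted p = 3.84e-07), so footprints fell further than the transcript, with a difference of -1.51 on the log2 scale (adjusted p = 0.000275). Of its paralogs, IGF2BP1 was at 0 in all 4 footprint libraries and IGF2BP3 at no more than 2.78, so neither was tested.

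Of the 12 named increases, 8 are given here, led by ENPP2, CD70 and FN1. The reads of these 8 are not known to be shared with a close relative, and the other increases are given below. ENPP2, which encodes the secreted enzyme autotaxin that makes lysophosphatidic acid, had footprint values of 149 and 145 in shBP2-2 libraries, against 20.1 and 25.04 in shNS libraries (6.53-fold; log2 change 2.71 ± 0.20, adjusted p = 4.2e-06). CD70 (chr19:6581648-6591150), the surface ligand of the receptor CD27, had 235 and 169.7 in shBP2-2 libraries, against 41.99 and 41.04 in shNS libraries (4.65-fold; log2 change 2.22 ± 0.19, adjusted p = 1.64e-05). In both genes each shBP2-2 library was several-fold above each shNS library. Fibronectin (FN1, chr2:215360865-215436068), a matrix protein, had 127 and 152 in shBP2-2 libraries, against 35.1 and 41.7 in shNS libraries (log2 change 1.88 ± 0.18, adjusted p = 3.9e-05). Neuroserpin (SERPINI1), a secreted protease inhibitor, had 179 and 200.03 in shBP2-2 libraries, against 50.1 and 58.4 in shNS libraries (1.82 ± 0.15, adjusted p = 1.24e-05). The rest of these 8 were DKK2, a secreted regulator of Wnt signalling (1.80), the prostaglandin-degrading enzyme gene HPGD (1.68), the glycolytic aldolase gene ALDOC (1.69) and the complement gene C3 (1.46). They were at values of at least 65.2 in shBP2-2 libraries and at most 38.95 in shNS libraries. Groups that do not overlap were part of the rule that named all 8. The mRNA of all 8 was called higher too in these libraries. The log2 mRNA change was 2.54 for ENPP2, 1.61 for CD70, 1.21 for FN1 and 2.47 for SERPINI1. It was 1.46 for DKK2, 1.56 for HPGD, 0.81 for ALDOC and 0.49 for C3. C3 was not called with shBP2-2 replicate 2 left out (limma adjusted p = 0.0553).

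Other increases, named after their values were seen, were in part without a change in mRNA. The secreted metalloprotease gene ADAMTS1 had 1146 and 1167 in shBP2-2 libraries, against 507 and 452 in shNS libraries (log2 change 1.27 ± 0.07, adjusted p = 9.03e-07), with mRNA at 1.17. The scavenger receptor gene CD163 of macrophages had 129 and 129.7 in shBP2-2 libraries, against 49.5 and 53.6 in shNS libraries (1.33 ± 0.17, adjusted p = 0.000281), with mRNA at 1.37. In both genes footprints and mRNA moved by like amounts. The tryptase gene TPSAB1, whose product is a serine protease of mast cells and which has close paralogs, had 979.8 and 858 in shBP2-2 libraries, against 400.4 and 428 in shNS libraries (1.14 ± 0.09, adjusted p = 1e-05), with an mRNA change of -0.04, adjusted p = 0.778. Plectin (PLEC), a linker between cytoskeletal filaments, had a footprint change of 1.15 ± 0.10, adjusted p = 1.96e-05 and an mRNA change of -0.01, adjusted p = 0.972. The difference between footprint and mRNA change passed its own test in TPSAB1 (1.18, adjusted p = 0.000107) and PLEC (1.15, adjusted p = 0.000166).

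Beside the target, the named decreases included RPL22, IDH1 and MPO. RPL22 (chr1:6185020-6199595), a protein of the large ribosomal subunit, had footprint values of 522 and 577 in shBP2-2 libraries, against 3228 and 2494 in shNS libraries (19.2% of shNS; log2 change -2.37 ± 0.16, adjusted p = 2.09e-06), while its mRNA was at 0.12, adjusted p = 0.314. Both shBP2-2 libraries lay far below either shNS library, and the difference between footprint and mRNA change was -2.49, adjusted p = 1.5e-06. Ribosomal protein genes have many processed copies in the genome, so the assignment of short footprints to RPL22, and to RPS28 below, is uncertain. The cytosolic isocitrate dehydrogenase gene IDH1 (chr2:208236227-208255071) had 356 and 390.4 in shBP2-2 libraries, against 954 and 999 in shNS libraries (-1.37 ± 0.08, adjusted p = 1.24e-06). MPO (chr17:58269855-58280935), the myeloperoxidase of granules, had 265 and 233 in shBP2-2 libraries, against 654 and 621 in shNS libraries (-1.37 ± 0.10, adjusted p = 4.2e-06). In both the replicates lay close together and the groups far apart. Further decreases were in AGK, a mitochondrial lipid kinase (-1.57), ORMDL1, a regulator of sphingolipid synthesis (-1.45), the transcriptional co-regulator gene HMG20B (-1.95) and the ribosomal protein gene RPS28 (-1.39). mRNA fell with the footprints in MPO (-1.72), AGK (-1.41), HMG20B (-1.58), IDH1 (-0.90) and RPS28 (-0.56), while that of ORMDL1 was not called (-0.19, adjusted p = 0.115). Outside the naming rule, SUPT16H, a subunit of the FACT histone chaperone (-1.21 ± 0.06, adjusted p = 3.29e-07), and TECR, a fatty acid elongation enzyme (-1.36 ± 0.11, adjusted p = 8.94e-06), fell at higher values than most. HMG20B was not called with shBP2-2 replicate 2 left out (limma adjusted p = 0.0652). RPS28 was not called with shBP2-2 replicate 1 or 2 left out (limma adjusted p between 0.0815 and 0.104).

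**Figure D1:**
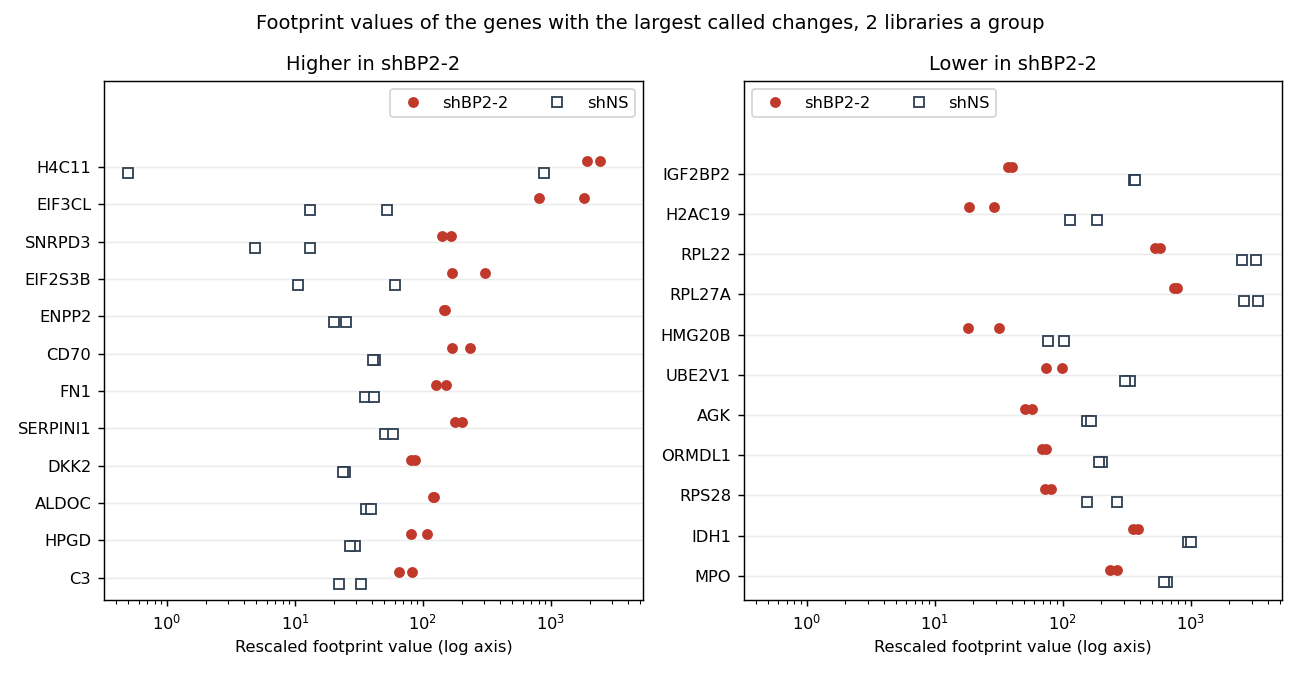
Rescaled footprint value (log axis) of 12 genes that rose and 11 that fell, those with the largest called changes described here, with 1 filled circle per shBP2-2 library and 1 open square per shNS library; a value of 0 is drawn at 0.5. In every gene both shBP2-2 libraries lie on the same side of both shNS libraries, by the rule that chose them, and H4C11 in shNS is split between 885 and 0.

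Several of the numerically largest changes were in genes whose reads are hard to assign. EIF3CL, a near copy of the initiation factor gene EIF3C, had 1799 and 804 in shBP2-2 libraries, against 13.2 and 52.2 in shNS libraries (log2 change 5.46 ± 0.82, adjusted p = 0.00103). EIF2S3B, a retained copy of EIF2S3, had 307 and 169 in shBP2-2 libraries, against 10.7 and 60.5 in shNS libraries (3.13 ± 0.51, adjusted p = 0.0017). The histone genes H4C11 (6.63) and H2AC19 (-2.54) belong to families with near-identical members, and H4C11 was at 885 and 0 in the 2 shNS libraries. UBE2V1, a ubiquitin-conjugating enzyme variant, shares exons with a readthrough entry and had 74.5 and 99.4 in shBP2-2 libraries, against 335 and 307 in shNS libraries (-1.85). The direction in these genes is that of the deposited values, and a different split of shared reads between entries was not tested. SNRPD3, a core protein of splicing particles, is given here for the size of its change, and whether its reads are shared was not tested. It had 166 and 141 in shBP2-2 libraries, against 13.2 and 4.87 in shNS libraries (4.13 ± 0.38, adjusted p = 2.55e-05) with an mRNA change of 0.30. H4C11 was not called with shBP2-2 replicate 1 or 2, or shNS replicate 1 left out (limma adjusted p between 0.0961 and 0.158). The H4C11 change was 12.56 without shNS replicate 1 and 1.25 without shNS replicate 2.

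Gene lists for the pathways of this cell type are described by how many tested members were called, beside the 6.83% higher and 5.21% lower among all genes, and by their median beside the 0.00 of all genes. The lists were chosen with earlier results of these data known, and the share of genes called followed depth, as given above. Lower calls without a higher one were found in the mitochondrial genome, the cytosolic aminoacyl-tRNA synthetases, serine and one-carbon metabolism and the ATF4 stress response. Mitotic genes, the mitochondrial ribosome, m6A genes and the interferon response also had lower calls only. In the interferon list that was 6.90% of members, near the share of all genes. Higher calls without a lower one were found in glycolysis, cholesterol synthesis, replication and G1/S genes and leukaemia self-renewal genes. The heat shock and p53 lists had 2 and 1 higher, at 10% and 5% near the share of all genes. These one-sided counts depended on the libraries used. With single libraries left out, the ATF4, mitochondrial ribosome, mitotic, interferon, heat shock, glycolysis and G1/S lists had calls on the other side too. In the 4 shBP2-2 and shNS libraries alone, the mitochondrial ribosome had 1 higher.

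**Figure D2:**
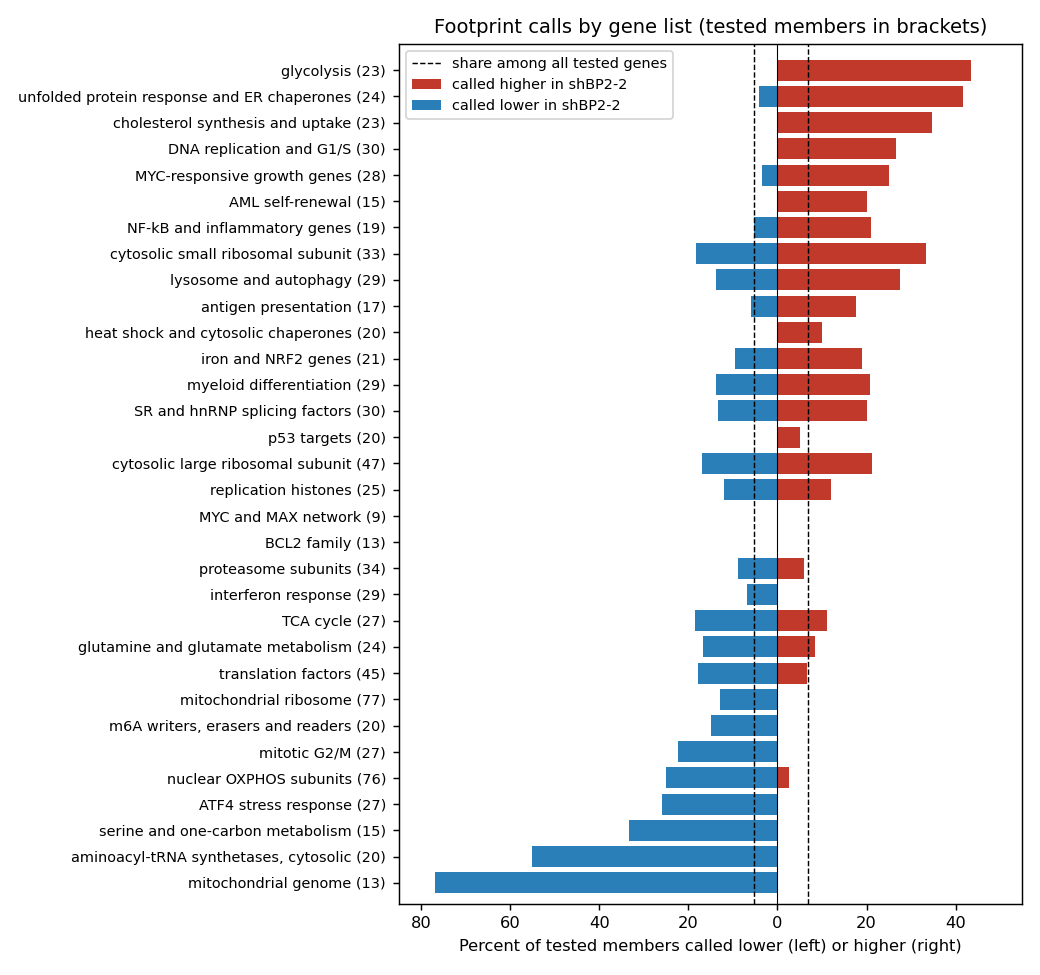
Percent of the tested members of each gene list called lower (left, blue) or higher (right, red) in footprints with shBP2-2 against shNS; the number of tested members is in brackets and the dashed lines mark 5.21% and 6.83%, the shares among all genes. The mitochondrial genome and the aminoacyl-tRNA synthetases reach furthest to the left and glycolysis and the ER chaperones furthest to the right.

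The ATF4 list had lower calls and no higher one. ATF4 is a transcription factor that cells make when amino acids run short, and it switches on enzymes, transporters and tRNA-charging enzymes that restore them. Of 27 tested members of the ATF4 list, 7 fell and 0 rose (median -0.24; mRNA median -0.59). The asparagine synthetase gene ASNS (chr7:97851677-97928441) had 434 and 507 in shBP2-2 libraries, against 757 and 846 in shNS libraries (log2 change -0.75 ± 0.09, adjusted p = 0.000282). The cysteine-making enzyme gene CTH (chr1:70411268-70439851) had 80.1 and 104 in shBP2-2 libraries, against 224 and 189 in shNS libraries (-1.13 ± 0.17, adjusted p = 0.00111), and the cystine importer gene SLC7A11 had 326 and 293 in shBP2-2 libraries, against 458 and 446 in shNS libraries (-0.56 ± 0.09, adjusted p = 0.00215). In all 3 both shBP2-2 libraries lay below both shNS libraries. The others called were the growth factor gene VEGFA (-0.52), the glutathione-degrading enzyme gene CHAC1 (-0.65), the mTORC1 inhibitor gene DDIT4 (-0.34) and the mitochondrial folate enzyme gene MTHFD2 (-0.19). Footprints on ATF4 itself were low, at 55.9 and 53.3 in shBP2-2 libraries, against 75.8 and 73.03 in shNS libraries, and were not called (-0.44 ± 0.19, adjusted p = 0.151). The count of lower members was 1 without precision weights, 3 in the 4 shBP2-2 and shNS libraries alone, 4 in the 4 libraries alone without weights, 4 or 2 with shBP2-2 replicate 1 or 2 left out and 3 with either shBP2-1 replicate left out. SLC7A11 was not called with shBP2-2 replicate 2 left out (limma adjusted p = 0.0628). VEGFA was not called with shBP2-2 replicate 1 or 2, shBP2-1 replicate 1 or 2, or shNS replicate 2 left out (limma adjusted p between 0.0537 and 0.164). CHAC1 was not called with shBP2-2 replicate 1 or 2, shBP2-1 replicate 1 or 2, or shNS replicate 1 left out (limma adjusted p between 0.0549 and 0.282). DDIT4 was not called with shBP2-2 replicate 2, shBP2-1 replicate 1 or 2, or shNS replicate 2 left out (limma adjusted p between 0.057 and 0.403). MTHFD2 was not called with shBP2-2 replicate 1 or 2, or shBP2-1 replicate 1 or 2 left out (limma adjusted p between 0.132 and 0.198).

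The serine synthesis pathway branches from glycolysis and feeds folate-bound one-carbon units. All of its 3 enzyme genes fell. PHGDH, the first enzyme, had 645 and 567 in shBP2-2 libraries, against 842 and 883 in shNS libraries (-0.52 ± 0.08, adjusted p = 0.00103). PSAT1, the transaminase that follows, had 931 and 870.4 in shBP2-2 libraries, against 1218 and 1267 in shNS libraries (-0.47 ± 0.07, adjusted p = 0.000774). PSPH, the last step, had 104 and 147 in shBP2-2 libraries, against 212 and 218 in shNS libraries (-0.74 ± 0.16, adjusted p = 0.0101). No shBP2-2 library reached a shNS library in any of them. With SHMT2 (-0.30) and MTHFD2, 5 of 15 tested members of the serine and one-carbon list fell and 0 rose (median -0.13); the count was 1 without precision weights and 2 or 3 with shBP2-2 replicate 1 or 2 left out. PSPH was not called with shBP2-2 replicate 1 left out (limma adjusted p = 0.094). SHMT2 was not called with shBP2-2 replicate 1 or 2 left out (limma adjusted p between 0.0882 and 0.183).

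Aminoacyl-tRNA synthetases load each amino acid onto its tRNA, and several of the cytosolic ones are ATF4 targets. Of the 20 tested, 11 fell and 0 rose (median -0.22; mRNA median -0.25). TARS1, for threonine, had 846 and 919 in shBP2-2 libraries, against 1292 and 1264 in shNS libraries (-0.53 ± 0.07, adjusted p = 0.0003). WARS1, for tryptophan, had 369 and 412 in shBP2-2 libraries, against 702 and 623 in shNS libraries (-0.75 ± 0.10, adjusted p = 0.000339). GARS1, for glycine (-0.46 ± 0.08, adjusted p = 0.00192), and NARS1, for asparagine (-0.32 ± 0.05, adjusted p = 0.00226), fell as well. These 4 were lower in both shBP2-2 libraries than in either shNS library. mRNA fell in WARS1 (-0.90), whereas TARS1 (0.03, adjusted p = 0.803) and NARS1 (-0.03, adjusted p = 0.827) were not called in mRNA. The count was 2 without precision weights and 4 or 7 with shBP2-2 replicate 1 or 2 left out.

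Genes of glutamine handling did not move as 1 group, with 4 of 24 tested lower and 2 higher (median -0.05; mRNA median -0.31). Beside ASNS, PSAT1 and SLC7A11, the amino acid transporter gene SLC38A2 fell, with 1909 and 2088 in shBP2-2 libraries, against 2591 and 2588 in shNS libraries (-0.36 ± 0.05, adjusted p = 0.000623). CAD, which starts pyrimidine synthesis from glutamine, rose, with 1297 and 1247 in shBP2-2 libraries, against 942 and 921 in shNS libraries (0.44 ± 0.06, adjusted p = 0.000771). The glutamine importer gene SLC1A5 had 1703 and 1713 in shBP2-2 libraries, against 1769.7 and 1692 in shNS libraries (-0.02 ± 0.05, adjusted p = 0.85), and its value was 0.01 with shNS replicate 1 left out. Its mRNA, in contrast, fell (-0.73, adjusted p = 0.000283), and the difference between footprint and mRNA change was 0.72, adjusted p = 0.000629. The mitochondrial alanine transaminase gene GPT2 had 35.4 and 43.6 in shBP2-2 libraries, against 59.5 and 64.7 in shNS libraries and missed the call (-0.61 ± 0.24, adjusted p = 0.119; mRNA -0.83, adjusted p = 0.000136). Glutamine synthetase (GLUL) was at -0.13 ± 0.06, adjusted p = 0.21. Without precision weights the list had 1 higher and 2 lower.

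**Figure D3:**
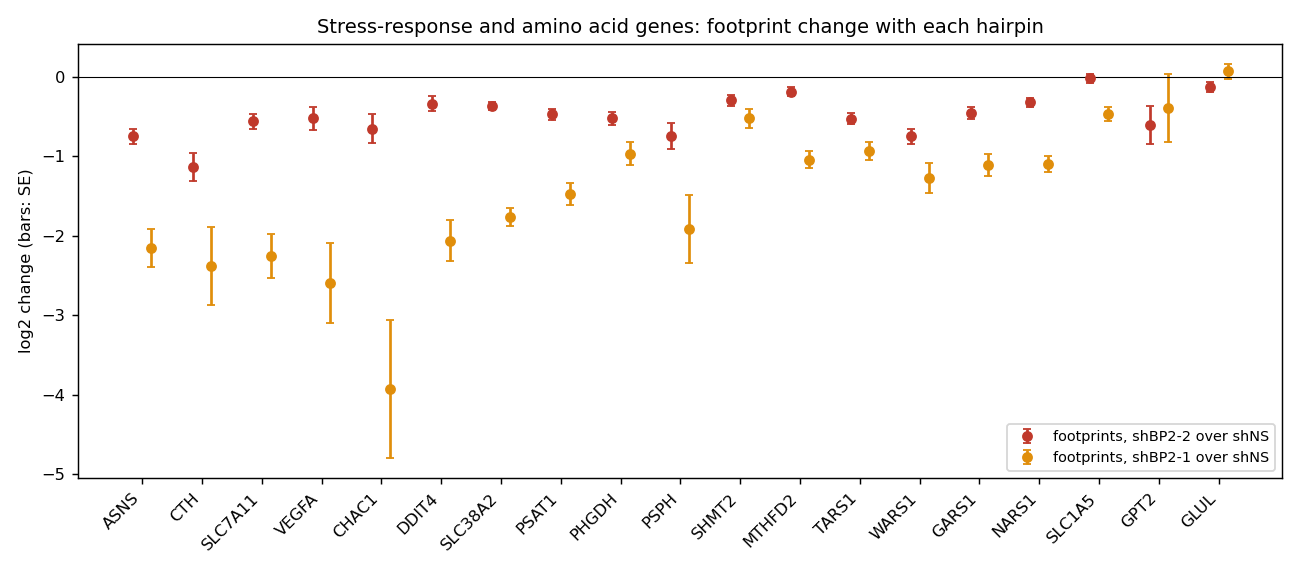
Log2 footprint change of 19 stress-response and amino acid genes with shBP2-2 over shNS (red) and with shBP2-1 over shNS (orange); points are fitted changes and bars their SE. The genes from ASNS to NARS1 are all ones called lower with shBP2-2, so they lie below 0 by that choice. SLC1A5, GPT2 and GLUL, which were not called with shBP2-2, are at the right, and other list members are not drawn.

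Against the same shNS libraries, shBP2-1 gave calls in 5.98% of all genes, 4.22% higher and 1.76% lower. ASNS was at -0.75 with shBP2-2 and -2.15 with shBP2-1, SLC7A11 at -0.56 and -2.25, PSAT1 at -0.47 and -1.47, and NARS1 at -0.32 and -1.10. The difference between the hairpins passed its test in these 4 genes, and in 11 of 27 members of the ATF4 list, 3 of 15 of the serine list and 3 of 20 synthetases shBP2-2 was the higher one, beside 1.93% of all genes. In 1 synthetase, 0 of the ATF4 list and 0 of the serine list it was the lower one, beside 3.59%. These shares of all genes moved without precision weights, as given with the hairpin comparison.

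A DNA sequence tied to this response is the element TGATGNAA, the letters of the composite site that ATF4 binds with a C/EBP partner. It was searched on both strands in the 250 bases before each RefSeq start (GRCh38.p14). Over all 35116 windows, not limited to tested genes, it stood in 3.14%. With a single window per tested gene, a base not directly comparable, it stood in 3 of 23 ATF4 list members, 2 of 16 synthetases and 1 of 10 serine genes. The 4 stretches below hold it in capitals and are written on the gene's strand, so that in CHAC1, AARS1 and IARS1, where it lies on the opposite strand, the capitals are its reverse complement.
ASNS (chr7:97872458-97872487, minus strand): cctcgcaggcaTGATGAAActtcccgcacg
CHAC1 (chr15:40953251-40953280, plus strand): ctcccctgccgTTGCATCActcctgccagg
AARS1 (chr16:70289675-70289704, minus strand): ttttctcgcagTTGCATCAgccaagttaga
IARS1 (chr9:92293698-92293721, minus strand): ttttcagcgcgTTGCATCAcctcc
Of the 6 tested members of these lists with the element, these 4 were called lower and were chosen for display, with AARS1 at -0.37 and IARS1 at -0.17. The other 2, not called, were the transcription factor gene ATF3 (-0.10 ± 0.34, adjusted p = 0.887) and the mitochondrial folate enzyme gene MTHFD1L (-0.13 ± 0.12, adjusted p = 0.545). AARS1, IARS1, ATF3 and MTHFD1L were named for this match. AARS1 was not called with shBP2-2 replicate 1 left out (limma adjusted p = 0.166). IARS1 was not called with shBP2-2 replicate 1 or 2, shBP2-1 replicate 1 or 2, or shNS replicate 2 left out (limma adjusted p between 0.0504 and 0.28). A match in letters describes the window only.

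Footprint values on transcripts of the mitochondrial genome, which mitochondria translate on their own ribosomes, fell in most genes while their mRNA did not. In shNS libraries these values were out of proportion to mRNA between genes. MT-ND1 had a mean of 144 in footprints and 73553 in mRNA, and MT-ND6 774 and 2753. Whether these reads came from mitochondrial ribosomes was not tested. Of the 13 genes, all subunits of the respiratory chain or ATP synthase, 10 fell and 0 rose in footprints (median -0.54). In mRNA 0 were lower and 5 higher (median 0.28), beside 33.1% lower and 31.4% higher among all genes. MT-ND3, a complex I subunit, had 63.3 and 75.2 in shBP2-2 libraries, against 160.4 and 133 in shNS libraries (-1.05 ± 0.18, adjusted p = 0.00284). MT-ATP6, of ATP synthase, had 203 and 245 in shBP2-2 libraries, against 493 and 364 in shNS libraries (-0.91 ± 0.16, adjusted p = 0.00347). MT-ND6, the complex I subunit on the light strand, had 489.9 and 539 in shBP2-2 libraries, against 779.6 and 769 in shNS libraries (-0.58 ± 0.08, adjusted p = 0.000588). In each, the higher shBP2-2 library stayed below the lower shNS library. MT-ND4 had 516 and 503 in shBP2-2 libraries, against 782 and 693 in shNS libraries (-0.54 ± 0.09, adjusted p = 0.00185), and the oxidase subunit gene MT-CO1 had 1755 and 1862 in shBP2-2 libraries, against 2643 and 2207 in shNS libraries (-0.42 ± 0.08, adjusted p = 0.00656). The remaining called genes were MT-ATP8 (-0.82), MT-CO3 (-0.62), MT-CYB (-0.55), MT-ND5 (-0.40) and MT-CO2 (-0.39), and those not called were MT-ND1 (-0.42), MT-ND2 (-0.51) and MT-ND4L (-0.14). The difference between footprint and mRNA change was called lower in 11 of the 13, beside 17.8% of all genes. The count of lower footprints was 5 without precision weights and 3 or 5 with shBP2-2 replicate 1 or 2 left out. MT-ATP6 and MT-ATP8 were not called with shBP2-2 replicate 1 left out (limma adjusted p between 0.0532 and 0.104). MT-CO3, MT-CYB, MT-CO1 and MT-ND5 were not called with shBP2-2 replicate 1 or 2 left out (limma adjusted p between 0.0582 and 0.146). MT-CO2 was not called with shBP2-2 replicate 1 or 2, shBP2-1 replicate 1 or 2, or shNS replicate 1 left out (limma adjusted p between 0.0568 and 0.31). With shBP2-1 the median was 1.07 against the same shNS libraries, and all 13 genes differed between the hairpins, beside 3.59% of all genes lower in that difference. The shBP2-1 libraries were the shallowest, and the part of depth in this contrast was not tested.

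**Figure D4:**
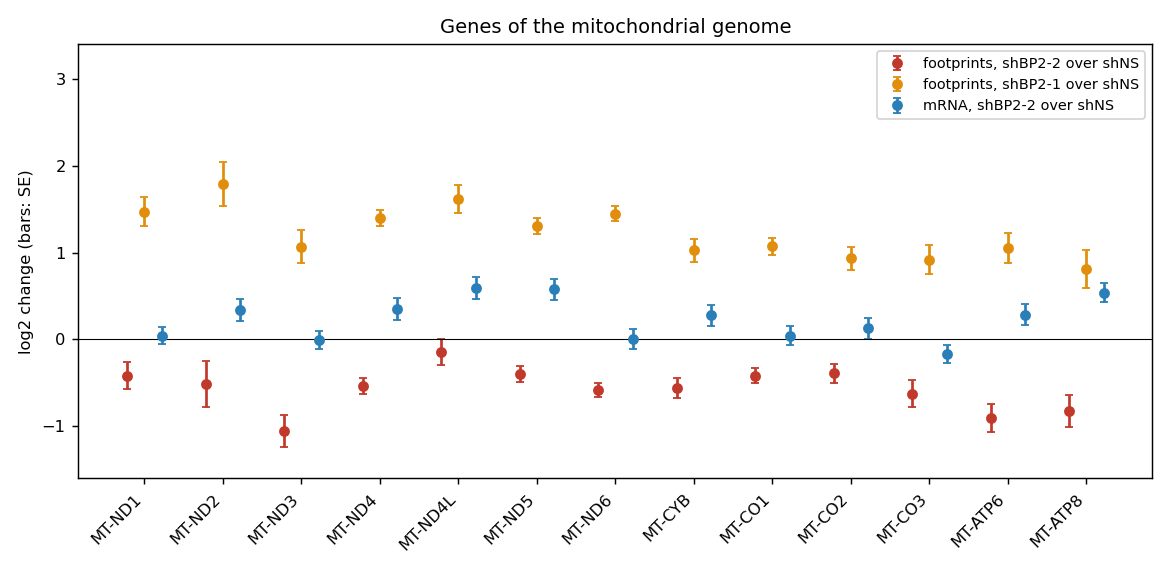
Log2 change of the 13 genes of the mitochondrial genome in footprints with shBP2-2 (red) and shBP2-1 (orange) and in mRNA with shBP2-2 (blue), each over shNS; points are fitted changes and bars their SE. All 13 fitted footprint changes lie below 0 with shBP2-2, where 10 were called, and above 0 with shBP2-1.

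Respiratory chain subunits encoded in the nucleus and made by cytosolic ribosomes had 19 of 76 tested members called lower and 2 higher (median -0.12; mRNA median -0.23). The ATP synthase subunit gene ATP5F1D had 112 and 98.2 in shBP2-2 libraries, against 281 and 234 in shNS libraries (-1.31 ± 0.16, adjusted p = 0.000282), beside an mRNA change of -2.07. UQCRB, of complex III, had 1822 and 1991 in shBP2-2 libraries, against 2883 and 2706 in shNS libraries (-0.54 ± 0.06, adjusted p = 6.53e-05), while its mRNA rose (0.74). NDUFA10, of complex I, was at -0.65 and COX6B1, of complex IV, at -0.55. Lower footprints thus occurred with lower mRNA in some subunits and with higher mRNA in others. Proteins of the mitochondrial ribosome had 10 of 77 tested members called lower and 0 higher (median -0.09), with MRPL27 at -0.77 ± 0.11, adjusted p = 0.000566, MRPS18C at -0.51, MRPL30 at -0.66 and MRPL24 at -0.81. In the TCA cycle list 5 of 27 fell and 3 rose (median -0.03). The list is wider than the cycle itself and holds the cytosolic IDH1 and the malic enzyme gene ME2. The members that fell were led by IDH1, followed by ME2 (-0.49 ± 0.08, adjusted p = 0.0012), the succinate dehydrogenase gene SDHC (-0.43) and the malate dehydrogenase gene MDH2 (-0.22). The count of lower members was 3 without precision weights and 5 or 6 with shBP2-2 replicate 1 or 2 left out for the nuclear subunits, 1 without precision weights and 2 or 3 with shBP2-2 replicate 1 or 2 left out for the mitochondrial ribosome, and 2 without precision weights, 3 in the 4 shBP2-2 and shNS libraries alone, 3 or 2 with shBP2-2 replicate 1 or 2 left out and 3 with either shBP2-1 replicate left out for the TCA cycle. The count of higher members was 0 without precision weights, 1 in the 4 shBP2-2 and shNS libraries alone, 1 in the 4 libraries alone without weights, 0 or 1 with shBP2-2 replicate 1 or 2 left out, 1 with either shBP2-1 replicate left out and 4 with shNS replicate 2 left out for the nuclear subunits and 0 without precision weights, 1 in the 4 libraries alone without weights, 1 or 0 with shBP2-2 replicate 1 or 2 left out, 1 with either shBP2-1 replicate left out and 1 with shNS replicate 1 left out for the TCA cycle. COX6B1, MRPS18C and SDHC were not called with shBP2-2 replicate 2 left out (limma adjusted p between 0.0583 and 0.139). MRPL30 was not called with shBP2-2 replicate 1 left out (limma adjusted p = 0.0951). MRPL24 was not called with shBP2-2 replicate 1 or 2 left out (limma adjusted p between 0.086 and 0.0893). MDH2 was not called with shBP2-2 replicate 1 or 2, or shBP2-1 replicate 1 or 2 left out (limma adjusted p between 0.073 and 0.14).

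Cytosolic ribosomal proteins kept their middle while single members moved in both directions. In the large subunit 10 of 47 rose and 8 fell (median 0.00), and in the small subunit 11 of 33 rose and 6 fell (median 0.07). Their mRNA was lower, with 33 of 47 and 26 of 33 called lower (medians -0.51 and -0.48, beside 33.1% lower among all genes). The difference between footprint and mRNA change was called higher in 27 of 47 and 21 of 33, beside 17.8% of all genes. RPL10 rose, with 4303 and 3567 in shBP2-2 libraries, against 1818 and 2269 in shNS libraries (0.93 ± 0.09, adjusted p = 5.07e-05). RPS27 rose, with 2515 and 2136 in shBP2-2 libraries, against 1389 and 1529 in shNS libraries (0.65 ± 0.08, adjusted p = 0.000156). RPL27A (chr11:8682792-8689872) fell, with 786 and 743 in shBP2-2 libraries, against 2610.1 and 3351 in shNS libraries (-1.95 ± 0.14, adjusted p = 3.59e-06), and its mRNA fell as much (-1.88). These groups did not overlap in any of the 3 genes. RPL14 (-0.54 ± 0.05, adjusted p = 1.14e-05), RPS20 (-0.80 ± 0.06, adjusted p = 4.13e-06), RPS24 (-0.39 ± 0.04, adjusted p = 7.49e-05) and RPS3 (-0.26 ± 0.03, adjusted p = 0.000329) fell as well, and of those picked after their values were seen, RPL15 (0.52) rose while RPL6 (-1.04) and RPS15 (-0.81) fell. The limit on assigning footprints given for RPL22 holds for all of these genes. Counts higher were 5 without precision weights and 5 with shBP2-2 replicate 1 left out in the large subunit and 3 without precision weights and 4 or 6 with shBP2-2 replicate 1 or 2 left out in the small one, and counts lower were 4 without precision weights, 5 with shBP2-2 replicate 1 left out and 15 with shNS replicate 2 left out in the large subunit and 10 with either shNS replicate left out in the small one.

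Transcripts of ribosomal proteins start with a C and a run of pyrimidines, the 5' terminal oligopyrimidine (TOP) tract through which mTORC1 signalling controls their translation. The tract was taken as a C followed by at least 4 pyrimidines at the RefSeq start. It stood in 4.07% of 35116 windows, not limited to tested genes, and in 44 of 64 ribosomal protein genes with a window, each counted once. The starts below carry it in capitals after 12 bases of upstream sequence, in 4 genes that fell and then in 2 that rose (GRCh38.p14).
RPL27A (chr11:8682780-8682803, plus strand): gcgaaggccttcCTTTTTCgtctg
RPL14 (chr3:40457327-40457350, plus strand): cgggtcttcttcCTTCTCgcctaa
RPS24 (chr10:78033851-78033874, plus strand): cgaatcgtggttCTCTTTTCCTCC
RPS3 (chr11:75399506-75399529, plus strand): cgcgagccacttCCTTTCCTTTCa
EEF1A1 (chr6:73521021-73521044, minus strand): gccgtgaacgttCTTTTTCgcaac
RPS27 (chr1:153990750-153990773, plus strand): tccgctttcgctCCTTTCCggcgg
The genes shown were picked among those that carry the tract, so they do not give its share in either direction. Of 459 tested genes with such a start, 8.50% were called higher and 4.14% lower, beside 6.83% and 5.21% of all genes. EEF1A1, the elongation factor that brings tRNA to the ribosome, rose, with 58148 and 57080.4 in shBP2-2 libraries, against 40191 and 45172 in shNS libraries (0.44 ± 0.04, adjusted p = 1.29e-05).

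Of 45 translation factors tested, 8 fell and 3 rose (median 0.02). EIF4EBP1, which blocks the cap-binding factor until mTORC1 phosphorylates it, had 136 and 161 in shBP2-2 libraries, against 259 and 282 in shNS libraries (-0.84 ± 0.13, adjusted p = 0.00122), with mRNA at -1.30. PDCD4, which inhibits the helicase eIF4A, had 414 and 529.8 in shBP2-2 libraries, against 737 and 818 in shNS libraries (-0.70 ± 0.11, adjusted p = 0.0012), with mRNA not called (-0.08, adjusted p = 0.52). The helicase gene EIF4A1 rose (0.22 ± 0.04, adjusted p = 0.00416). Both inhibitors were thus lower in each shBP2-2 library than in each shNS library. The count of lower factors was 2 without precision weights and 3 or 5 with shBP2-2 replicate 1 or 2 left out. That of higher factors was 1 without precision weights, 1 with either shBP2-2 replicate left out and 5 with either shNS replicate left out. EIF4A1 was not called with shBP2-2 replicate 1 or 2 left out (limma adjusted p between 0.0574 and 0.0615).

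Of 23 tested genes of glycolysis, the breakdown of glucose to pyruvate, 10 rose and 0 fell (median 0.08). Of its mRNAs 13 were lower and 4 higher (median -0.32), beside 33.1% lower and 31.4% higher among all genes. ENO1, enolase, had 18453 and 17932 in shBP2-2 libraries, against 14478 and 14849.6 in shNS libraries (0.31 ± 0.02, adjusted p = 4.13e-06). GAPDH, which makes the first high-energy phosphate of the pathway, had 12837 and 12467 in shBP2-2 libraries, against 10045 and 9756 in shNS libraries (0.35 ± 0.03, adjusted p = 5.32e-06). TPI1, the triose isomerase, had 1826 and 1824 in shBP2-2 libraries, against 1348 and 1234 in shNS libraries (0.50 ± 0.06, adjusted p = 0.000211). The increases were small, 1.24-fold to 1.41-fold in these 3, and larger than the replicate spread. The difference between footprint and mRNA change was called higher in ENO1 (0.66, adjusted p = 0.000495), GAPDH (0.76, adjusted p = 0.000271) and TPI1 (0.82, adjusted p = 0.000271), and LDHA, lactate dehydrogenase, rose in both footprints (0.22) and mRNA (0.50). The count of higher members was 5 without precision weights and 5 or 6 with shBP2-2 replicate 1 or 2 left out. Several of these enzymes have processed copies in the genome, and the split of their reads was not tested.

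Chaperones that fold proteins in the endoplasmic reticulum, the genes of the unfolded protein response, had 10 of 24 higher and 1 lower (median 0.22). HSPA5 (BiP), the main lumenal chaperone, had 8455 and 8566 in shBP2-2 libraries, against 5726 and 6442 in shNS libraries (0.49 ± 0.05, adjusted p = 3.9e-05). HYOU1 had 1906 and 1954 in shBP2-2 libraries, against 1369 and 1332 in shNS libraries (0.52 ± 0.05, adjusted p = 5.51e-05), while HSP90B1 was at 0.33 and the disulfide isomerase gene PDIA3 at 0.32. mRNA rose in HSPA5 (0.68), HSP90B1 (0.96) and PDIA3 (0.88) and was not called in HYOU1 (-0.09, adjusted p = 0.504). Cholesterol synthesis and uptake had 8 of 23 higher and 0 lower (median 0.19; mRNA median -0.16). HMGCS1, an early enzyme of the pathway, had 1451 and 1430.5 in shBP2-2 libraries, against 1058 and 1045 in shNS libraries (0.45 ± 0.06, adjusted p = 0.000281). Each shBP2-2 library lay above each shNS library. FDPS (0.35) and DHCR7 (0.46), later enzymes, rose too. Cytosolic chaperones had 2 of 20 higher, HSPA8 (0.46 ± 0.02, adjusted p = 3.29e-07) and HSPA1B (0.57 ± 0.07, adjusted p = 0.000302), which has a near-identical copy, while HSPE1 (0.25) and HSPB1 (-0.37) were not called. Counts higher were 5 without precision weights and 6 with shBP2-2 replicate 1 left out for the ER list, 2 without precision weights and 4 with shBP2-2 replicate 1 left out for cholesterol and 5 with shNS replicate 2 left out for the cytosolic chaperones. The 1 lower of the ER list became 0 without precision weights, 0 in the 4 shBP2-2 and shNS libraries alone, 0 with either shBP2-2 replicate left out, 0 with either shBP2-1 replicate left out and 2 with shNS replicate 2 left out.

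Genes of myeloid differentiation were called in both directions. S100A9, a subunit of calprotectin, had 4512 and 4625 in shBP2-2 libraries, against 7937 and 7726 in shNS libraries (-0.78 ± 0.04, adjusted p = 2.15e-07). MPO, given above, fell too, and lysozyme (LYZ), which digests bacterial walls, had 28224 and 28604 in shBP2-2 libraries, against 32219 and 35469 in shNS libraries (-0.25 ± 0.03, adjusted p = 0.000562; 0.00 under quantile normalization). CD14, the lipopolysaccharide co-receptor, had 279 and 291 in shBP2-2 libraries, against 191 and 155 in shNS libraries (0.73 ± 0.13, adjusted p = 0.00283), and the proteoglycan gene VCAN had 3144 and 3189.5 in shBP2-2 libraries, against 2264 and 2492 in shNS libraries (0.42 ± 0.05, adjusted p = 0.00027). In total 6 of 29 tested members rose and 4 fell (median 0.22). mRNA fell in S100A9 (-0.82) and LYZ (-0.28), rose in VCAN (0.91) and was not called in CD14 (0.08, adjusted p = 0.636). The count of higher members was 1 without precision weights and 2 with shBP2-2 replicate 2 left out, and that of lower ones 7 with shNS replicate 2 left out. CD14 was not called with shBP2-2 replicate 2 left out (limma adjusted p = 0.0531).

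Inflammatory genes had 4 of 19 higher and 1 lower (median 0.18). The monocyte attractant gene CCL2 had 326 and 329 in shBP2-2 libraries, against 192 and 166 in shNS libraries (0.87 ± 0.11, adjusted p = 0.000366). CXCL8, which attracts neutrophils, had 210.5 and 187 in shBP2-2 libraries, against 111 and 138 in shNS libraries (0.67 ± 0.15, adjusted p = 0.0108). The NF-kB subunit gene NFKB2 was at 0.69 and the cytokine gene IL1B at 0.44. CCL2 and CXCL8 were higher in both shBP2-2 libraries than in either shNS library. Leukaemia self-renewal genes had 3 of 15 higher: PBX3, a partner of HOX proteins, had 136 and 138 in shBP2-2 libraries, against 63.9 and 56.3 in shNS libraries (1.19 ± 0.16, adjusted p = 0.000361), GATA2 was at 1.14, the Polycomb gene BMI1 at 0.61 and LMO2, not called, at 0.37. Counts higher were 0 without precision weights, 2 in the 4 shBP2-2 and shNS libraries alone, 1 or 2 with shBP2-2 replicate 1 or 2 left out and 2 with either shBP2-1 replicate left out for the inflammatory genes and 0 without precision weights and 1 with shBP2-2 replicate 1 left out for self-renewal. The 1 lower inflammatory gene became 0 without precision weights, in the 4 shBP2-2 and shNS libraries alone, in the 4 libraries alone without weights, with either shBP2-2 replicate left out, with either shBP2-1 replicate left out and with shNS replicate 1 left out. CXCL8 and GATA2 were not called with shBP2-2 replicate 1 left out (limma adjusted p between 0.0872 and 0.108). NFKB2 was not called with shBP2-2 replicate 1 or 2, or shBP2-1 replicate 1 or 2 left out (limma adjusted p between 0.0509 and 0.109). IL1B and BMI1 were not called with shBP2-2 replicate 1 or 2, shBP2-1 replicate 1 or 2, or shNS replicate 2 left out (limma adjusted p between 0.0537 and 0.223).

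Lysosome and autophagy genes had 8 of 29 higher and 4 lower (median 0.11). The protease gene CTSD had 2491 and 2159 in shBP2-2 libraries, against 1503 and 1338 in shNS libraries (0.69 ± 0.07, adjusted p = 6.57e-05), with no called change in mRNA (0.00, adjusted p = 0.99), and ATP6AP1, of the proton pump, rose (0.52 ± 0.07, adjusted p = 0.000312). The cathepsin genes CTSZ (-0.57 ± 0.08, adjusted p = 0.000531) and CTSS (-0.55 ± 0.08, adjusted p = 0.000623) fell, so cathepsins moved in both directions. In antigen presentation 3 of 17 rose and 1 fell (median 0.16), with HLA-B at 0.34 ± 0.05, adjusted p = 0.00061, B2M at 0.15 and the invariant chain gene CD74 at -0.33. HLA genes vary between people and share sequence, so their footprint assignment is uncertain. In the iron and NRF2 list 4 of 21 rose and 2 fell (median 0.05), with the peroxiredoxin gene PRDX1 at 0.29, NQO1 at 0.52 and thioredoxin (TXN) at -0.55. Counts higher were 3 without precision weights and 3 or 4 with shBP2-2 replicate 1 or 2 left out for lysosome genes, 1 without precision weights, in the 4 shBP2-2 and shNS libraries alone, in the 4 libraries alone without weights, with either shBP2-2 replicate left out and with either shBP2-1 replicate left out for antigen presentation and 1 without precision weights and 1 or 2 with shBP2-2 replicate 1 or 2 left out for iron and NRF2 genes. Counts lower without precision weights were 2 for lysosome genes, 0 for antigen presentation and 1 for iron and NRF2 genes. For antigen presentation the count was also 0 in the 4 shBP2-2 and shNS libraries alone. In each of these lists the lower count moved when single libraries were left out. B2M was not called with shBP2-2 replicate 1 or 2, or shBP2-1 replicate 1 or 2 left out (limma adjusted p between 0.075 and 0.194). CD74 was not called with shBP2-2 replicate 1 or 2, shBP2-1 replicate 1 or 2, or shNS replicate 1 left out (limma adjusted p between 0.0625 and 0.216). NQO1 was not called with shBP2-2 replicate 1 left out (limma adjusted p = 0.129).

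Replication and G1/S genes had 8 of 30 higher and 0 lower (median 0.17), and mitotic genes 6 of 27 lower and 0 higher (median -0.19). The cyclin gene CCND3, which drives entry into S phase, had 769 and 729 in shBP2-2 libraries, against 541 and 551 in shNS libraries (0.45 ± 0.07, adjusted p = 0.00204). PCLAF, which binds the replication clamp, had 55.9 and 41.2 in shBP2-2 libraries, against 13.8 and 2.09 in shNS libraries (2.95 ± 0.56, adjusted p = 0.00462), with shNS libraries that differed from each other. The spindle checkpoint kinase gene TTK had 229 and 249.7 in shBP2-2 libraries, against 342 and 345 in shNS libraries (-0.51 ± 0.10, adjusted p = 0.00677), and MKI67, the proliferation marker Ki-67, had 1185 and 1089 in shBP2-2 libraries, against 1422 and 1388 in shNS libraries (-0.32 ± 0.06, adjusted p = 0.00726). Smaller calls were the kinase gene CDK6 (0.34) and the helicase gene MCM4 (0.23) among G1/S genes and AURKA (-0.41) and CCNA2 (-0.42) among mitotic ones. CDKN1A, the p21 inhibitor that p53 induces, rose, with 55.9 and 47.3 in shBP2-2 libraries, against 18.8 and 11.8 in shNS libraries (1.73 ± 0.30, adjusted p = 0.00229), as the 1 called of 20 p53 targets (0 without precision weights). FDXR (0.55), GADD45A (0.88) and TP53I3 (0.48), the next by p, were not called. Counts were 1 without precision weights, 5 in the 4 shBP2-2 and shNS libraries alone, 4 in the 4 libraries alone without weights, 2 or 3 with shBP2-2 replicate 1 or 2 left out and 3 with either shBP2-1 replicate left out for higher G1/S genes and 1 without precision weights, 1 with either shBP2-2 replicate left out and 3 with either shBP2-1 replicate left out for lower mitotic genes. TTK was not called with shBP2-2 replicate 1 left out (limma adjusted p = 0.0642). MKI67 was not called with shBP2-2 replicate 2 left out (limma adjusted p = 0.143). CDK6 was not called with shBP2-2 replicate 1 or 2 left out (limma adjusted p between 0.097 and 0.126). MCM4 and CCNA2 were not called with shBP2-2 replicate 1 or 2, or shBP2-1 replicate 1 or 2 left out (limma adjusted p between 0.0513 and 0.155). AURKA was not called with shBP2-2 replicate 1 or 2, or shNS replicate 1 left out (limma adjusted p between 0.0537 and 0.264).

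MYC, a transcription factor of growth, had 1511 and 1479 in shBP2-2 libraries, against 1699 and 1667 in shNS libraries and missed the call (-0.17 ± 0.05, adjusted p = 0.0596), with mRNA lower (-0.54, adjusted p = 0.000646). None of 9 tested genes of the MYC and MAX network and none of 13 BCL2 family genes was called by limma with weights (medians -0.05 and -0.32), while 3 of each list had an unadjusted p under 0.05. In refits, 2 of the MYC and MAX genes were lower when shNS replicate 2 was left out, and 1 of each list higher when shNS replicate 1 was. The groups did not overlap in 8 of the 13 BCL2 family genes on the lower side and 1 on the higher, beside 26.5% and 27% of all genes. Beside MYC, the members with the smallest p were MLX (0.41 ± 0.13, adjusted p = 0.0645), MAX (-0.39) and MGA (0.12), and MCL1 (0.23 ± 0.08, adjusted p = 0.0914), BIK (-0.54), BID (-0.34) and BCL2L12 (-0.55) of the BCL2 family. MYC-responsive growth genes had 7 of 28 higher and 1 lower (median 0.03), with the nucleolar gene NOP56 at 0.40 ± 0.07, adjusted p = 0.00215 beside CAD. Splicing factors had 6 of 30 higher and 4 lower (median 0.04), led by HNRNPA3, with 2101 and 2251 in shBP2-2 libraries, against 3587 and 3519.5 in shNS libraries (-0.70 ± 0.05, adjusted p = 2.09e-06), and SRSF1, with 1701 and 1667 in shBP2-2 libraries, against 1068 and 1242 in shNS libraries (0.55 ± 0.07, adjusted p = 0.000351), with HNRNPA1 at 0.41. HNRNPA3 fell although its mRNA rose (0.45). Of 20 tested m6A genes (median 0.03) 3 fell, the readers HNRNPA2B1 (-0.20 ± 0.03, adjusted p = 0.00178), HNRNPC (-0.20) and YTHDF3 (-0.38), and 0 rose, with the writer subunit gene WTAP at 0.33, not called. Replication histones had 3 of 25 in each direction (median -0.10), with H2BC21 (0.75), H4C14 (0.45) and H2AC18 (0.23) higher, and share sequence among themselves. In the interferon list (median 0.18) 2 of 29 fell, EIF2AK2 (-0.50) and IFI16 (-0.31), while ISG15 (0.64) and IFNGR2 (-0.79) were not called. In the proteasome (median 0.04) 2 of 34 rose, PSMB8 (0.36) and PSMA7 (0.26), and 3 fell, with PSMB7 at -0.28 and PSMD8 at -0.36. Counts were 3 without precision weights and 3 or 4 with shBP2-2 replicate 1 or 2 left out for higher MYC-responsive genes, 1 without precision weights, 1 or 3 with shBP2-2 replicate 1 or 2 left out and 11 with shNS replicate 2 left out for higher splicing factors and 0 without precision weights and 1 with either shBP2-2 replicate left out for lower m6A genes. The 1 lower MYC-responsive gene became 0 without precision weights, 0 in the 4 shBP2-2 and shNS libraries alone, 0 in the 4 libraries alone without weights, 0 with either shBP2-2 replicate left out, 0 with either shBP2-1 replicate left out and 2 with shNS replicate 1 left out. Counts lower were 1 without precision weights and 2 with either shBP2-2 replicate left out for splicing factors, 1 without precision weights, 1 with shBP2-2 replicate 2 left out and 8 with shNS replicate 2 left out for histones, 0 without precision weights, 1 in the 4 shBP2-2 and shNS libraries alone, 1 in the 4 libraries alone without weights, 0 with either shBP2-2 replicate left out, 1 with either shBP2-1 replicate left out and 1 with shNS replicate 1 left out for the interferon list and 0 without precision weights and 0 with either shBP2-2 replicate left out for the proteasome. Counts higher were 1 without precision weights and 5 with shNS replicate 1 left out for histones and 0 without precision weights, 0 with either shBP2-2 replicate left out, 1 with either shBP2-1 replicate left out and 6 with shNS replicate 2 left out for the proteasome. HNRNPC, YTHDF3, IFI16, PSMB8, PSMB7 and PSMD8 were not called with shBP2-2 replicate 1 or 2 left out (limma adjusted p between 0.0536 and 0.278). EIF2AK2 was not called with shBP2-2 replicate 1 or 2, shBP2-1 replicate 1 or 2, or shNS replicate 1 left out (limma adjusted p between 0.0787 and 0.189). PSMA7 was not called with shBP2-2 replicate 1 or 2, or shBP2-1 replicate 1 or 2 left out (limma adjusted p between 0.0554 and 0.169). H2AC18 and HNRNPA1 were not called with shBP2-2 replicate 1 left out (limma adjusted p between 0.0729 and 0.0832). Of markers of other cell types 2 were tested and both rose: NKG7 was at 589 and 507 in shBP2-2 libraries, against 434 and 369 in shNS libraries, with the other 6 T and NK markers at 0, and the keratin gene KRT18 at 37.3 and 49.7 in shBP2-2 libraries, against 19.4 and 20.9 in shNS libraries. NKG7 was not called with shBP2-2 replicate 1 left out (limma adjusted p = 0.147). KRT18 was not called with shBP2-2 replicate 2 left out (limma adjusted p = 0.176). The part of such markers in the results was not tested.

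Across the 9548 genes also past the minimum in mRNA, footprint and mRNA changes were weakly related, with Pearson's r = 0.16 and Spearman's rho = 0.11 across genes, which are not independent replicates. In mRNA 31.4% of genes were called higher and 33.1% lower. Of the 651 genes with higher footprints, mRNA was higher in 255, lower in 167 and not called in 229. Of the 490 with lower footprints, mRNA was lower in 208, higher in 105 and not called in 177. So 39.2% of increases and 42.4% of decreases had a called mRNA change of the same direction, beside those 31.4% and 33.1% of all genes. ENPP2, CD70, MPO and RPL27A moved in both layers, whereas RPL22, ORMDL1, PLEC and SNRPD3 moved in footprints beside mRNA changes of 0.12, -0.19, -0.01 and 0.30. The test of the difference itself called 35.6% of genes, 17.8% in each direction. It uses the same footprint libraries as the footprint comparison. Calls of that difference, 3399 in all, were 1739 with shBP2-2 mRNA replicate 1 left out, 1889 with shNS mRNA replicate 1 left out and 1727 without precision weights. The 6161 mRNA calls were 3793 with shBP2-2 mRNA replicate 1 left out.

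**Figure D5:**
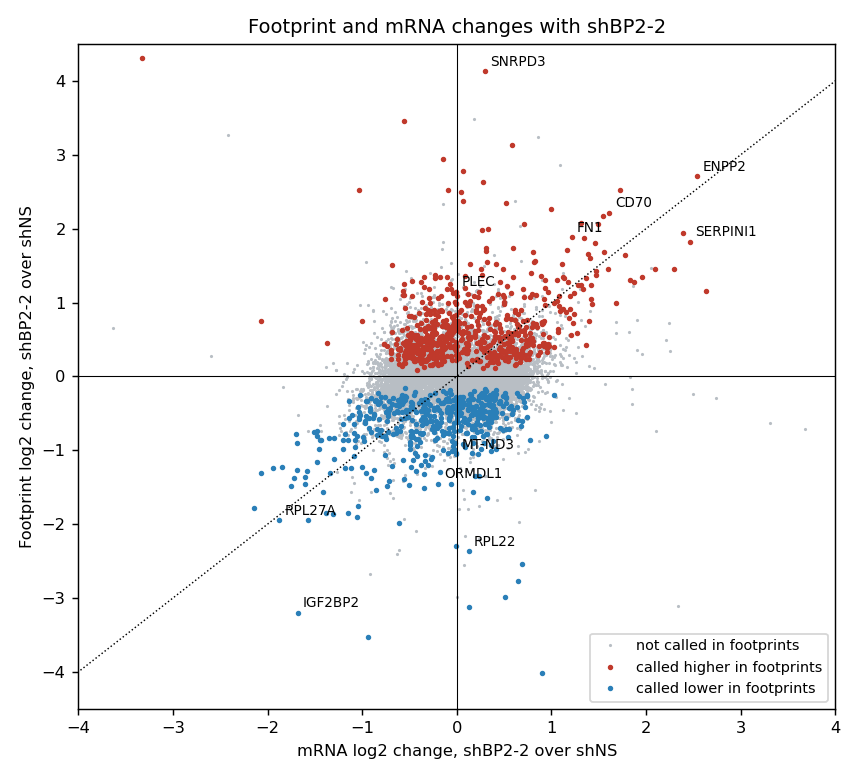
Log2 footprint change (vertical) against log2 mRNA change (horizontal) with shBP2-2 over shNS, 1 point per gene, for 9548 genes of which 16 lie outside the axes; red and blue points are genes called higher and lower in footprints and the dotted line marks equal change. IGF2BP2 lies below the line, RPL27A on it, and RPL22 and SNRPD3 close to no mRNA change.

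The difference between shBP2-2 and shBP2-1 in footprints, tested in the same fit, was called in 532 genes (5.51%), with shBP2-2 higher in 1.93% of all genes and lower in 3.59%. That balance depended on the precision weights: 35.0% of the called differences were higher with them, against 52.9% without, where 969 were higher and 864 lower. IGF2BP2 was at -3.20 with shBP2-2 and -4.02 with shBP2-1, a difference not called by that test (adjusted p = 0.408). RPL22 was at -2.37 and -2.16, SNRPD3 at 4.13 and 3.99, and PLEC at 1.15 and 1.24, with no called difference. ENPP2 (2.71 and -0.42), CD70 (2.22 and -1.41), RPL27A (-1.95 and 0.00), IDH1 (-1.37 and 0.48) and MPO (-1.37 and -0.04) differed between the hairpins. The count of differences was 114 and 122 without shBP2-1 replicate 1 or 2, 348 and 281 without shBP2-2 replicate 1 or 2, and 931 and 923 without shNS replicate 1 or 2.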

How the data were processed

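Footprint (Ribo-seq) and mRNA libraries of MM6 cells were analysed, 12 in all and 2 per hairpin and assay. The score analysed is the normalized read count per gene that the authors deposited, rounded to whole numbers, as the name of their table calls it. How it was normalized is not stated in the labels or headers, and footprint totals were not levelled, so it is not treated as a raw count. The submitters' processing notes list FastQC, cutadapt, Bowtie, STAR, RSEM and the build hg38, with no role stated. All columns of the table were mapped to samples, and 0 were left unused.

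Each assay's libraries were rescaled by median-ratio factors, genes with a mean of at least 10 over the shBP2-2 and shNS footprint libraries were kept, and limma 3.58.1 (R 4.3.3) was run with voom weights (prior 0.5) on all 6 libraries of an assay, which share 1 estimate of the spread. The footprint minus mRNA change was an interaction over 12 libraries. Values after ± are SE of the log2 change, every adjusted p is limma's with Benjamini-Hochberg adjustment over all genes tested, and a call is an adjusted p under 0.05. Since the values are no raw counts, no count model was used. On simulated counts over 9548 genes the footprint test recovered 79% of changes of log2 1 and 96% of log2 2, with 5.91% of calls false. Every simulated gene had the same spread beyond counting noise, which was preset and not estimated from these libraries. The simulation therefore does not give the error rate of the calls reported here.

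Members, lists and rules were chosen with earlier results of these data known. Genes were named as a fixed set (IGF2BP1 to IGF2BP3, MYC, GPT2, SLC1A5, GLUL), the 12 largest called changes per direction at a mean of at least 50 whose groups did not overlap, and up to 4 members per list with the smallest p, leaving out clone, readthrough and duplicate symbols. Some genes that this rule names are not reported here. Further genes are described in lists whose called members are all given or were named after their values were seen. Alternatives covered scaling, weights, filters, the libraries used and a replicate block. Sequences come from RefSeq (GRCh38.p14), gene coordinates from the same assembly. Python 3.11.15, pandas 2.3.3 and matplotlib 3.10.9 were used for tables and figures.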

Additional observations from a re-analysis of the deposited data

Results flagged for a closer look

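The footprint change against shNS differed between the hairpins in 70 of the 169 tested genes named above, beside 5.51% of all genes. Most of these genes were named by their shBP2-2 change, which is part of this difference, so these shares are not comparable. Each value below is the shBP2-2 log2 change minus the shBP2-1 log2 change, from limma with an adjusted p under 0.05 over all 9647 genes, so a positive value means higher with shBP2-2. The 2 hairpins share the shNS libraries, which cancel in this difference, and the shBP2-1 libraries are the shallowest. Among genes of the mitochondrial genome, 10 of 13 called lower with shBP2-2 against shNS, the difference was -1.89 for MT-ND1, -2.31 for MT-ND2, -2.12 for MT-ND3, -1.94 for MT-ND4, -1.76 for MT-ND4L, -1.71 for MT-ND5, -2.03 for MT-ND6, -1.49 for MT-CO1, -1.32 for MT-CO2, -1.54 for MT-CO3, -1.96 for MT-ATP6, -1.63 for MT-ATP8 and -1.58 for MT-CYB. Every one of the 13 lay in the same direction. Among stress-response, amino acid and tRNA charging genes, with fitted values below 0 with both hairpins and nearer to 0 with shBP2-2, the difference was 1.41 for ASNS, 1.70 for SLC7A11, 2.08 for VEGFA, 3.28 for CHAC1, 1.73 for DDIT4, 1.40 for SLC38A2, 1.001 for PSAT1, 0.85 for MTHFD2, 0.64 for GARS1, 0.77 for NARS1 and 0.45 for SLC1A5. SLC1A5 was only at -0.02 with shBP2-2, which was not called. Among ribosomal proteins and translation factors, the difference was -1.95 for RPL27A, -1.16 for RPL6, -0.28 for RPL14, 0.35 for RPL15, -0.43 for RPS20, -0.40 for RPS3, -0.77 for RPS15, -0.67 for PDCD4 and 0.27 for EIF4A1. Among sterol synthesis and chaperones, the difference was 0.89 for HMGCS1, 0.84 for FDPS, 0.51 for DHCR7, 0.59 for HYOU1, -0.26 for HSPA8 and -0.91 for HSPB1. Among respiration, metabolism and proteolysis, the difference was -1.66 for ATP5F1D, -1.32 for NDUFA10, -0.73 for MDH2, -1.85 for IDH1, -0.80 for TECR, 0.36 for PRDX1, -0.47 for PSMB7, -0.56 for PSMD8 and -2.29 for UBE2V1. Among myeloid, inflammatory and lysosomal genes, the difference was -1.53 for S100A9, -0.996 for LYZ, -1.34 for MPO, 0.68 for VCAN, 1.63 for CCL2, 1.91 for CXCL8, 2.20 for PBX3, -0.81 for CTSZ, -0.68 for CTSS and 0.88 for TPSAB1. Among mitosis, chromatin and membranes, the difference was -0.62 for TTK, -0.54 for MKI67, -1.28 for SUPT16H, 1.25 for H2BC21, -2.02 for HMG20B, -1.33 for ORMDL1 and -1.45 for AGK. Among secreted and surface proteins, the difference was 3.12 for ENPP2, 3.62 for CD70, 1.65 for SERPINI1, 2.08 for DKK2 and 1.39 for ADAMTS1. The smallest adjusted p was 2.21e-09, in S100A9, whose footprints were at 4512 and 4625 with shBP2-2, 12941 and 13446 with shBP2-1 and 7937 and 7726 with shNS. CHAC1 had the largest adjusted p, 0.0493, at values of 81.96 and 70.3 with shBP2-2, 12.9 and 0 with shBP2-1 and 127 and 109.9 with shNS. The part of depth in these differences was not tested.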

How the results depend on the processing

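Footprint calls with shBP2-2, 1162 in all, were 8327 on the values as deposited (31 higher, 8296 lower), where library totals are not levelled, 397 with quantile normalization, 242 without precision weights and 316 with a pseudocount of 5 in place of 1 there. They were 1157 with upper-quartile factors, 1133 with a mean of at least 50, 914 with no filter, 842 in the 4 shBP2-2 and shNS libraries alone, and, chosen after seeing the data, 888 in those 4 without weights. Single replicates left out gave 434 to 1500, with the lone library of a group assumed to vary like the others. mRNA calls, 6161 in all, were 3793 to 6905 with single replicates left out. Calls of the footprint minus mRNA change, 3399 in all, were 6133 on the values as deposited and 1727 without weights, and single replicates left out gave 1739 to 3811, with 1889 when shNS mRNA replicate 1 was out. Hairpin differences, 532 in all, were 9141 on the values as deposited, 1833 without weights and 114 to 931 with single replicates left out. The cause of these shifts was not tested, apart from the common scale of the deposited values.

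Replicate numbers were not taken to pair samples, since deviations of same-numbered footprint libraries correlated at 0.079 for shBP2-2 with shNS. With the replicate number as a block, footprint calls were 1260, mRNA calls 5535, calls of the footprint minus mRNA change 3111 and hairpin differences 1036.

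Of the 169 tested genes named, 143 were called, and 64 lost the call without weights, 44 with quantile normalization, 44 or 42 with shBP2-2 replicate 1 or 2 left out and 0 with the block. LYZ was at 0.00 with quantile normalization, and SLC1A5, not called, ran from -0.050 to 0.014 with single replicates left out, the value of 0.014 being without shNS replicate 1. ATF3, not called, ran from -0.45 to 0.13, without shBP2-2 replicate 2 and 1. Depth limits the comparison: the median SE was 0.36 in the 2411 genes with the lowest means and 0.09 in the 2412 with the highest.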
